A study of Arabidopsis thaliana with 2 samples.

Results

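SOG1-Myc peaks at 9 genes of the bZIP transcription factor family are described here. The members are HY5, GBF2, BZIP60, bZIP53, bZIP2, bZIP19, bZIP52, bZIP75 and AT1G06070, which is also labelled bZIP69 in the figures. A gene was taken as a member when the authors' peak list names it, as the locus of its longest transcript, on the line of a peak. This gave 9 genes and 11 peaks, of 1513 loci and 778 peaks in the whole list. The members were thus chosen by the presence of a listed peak, that is, by the same library's enrichment, so their peak values are a description and carry no test. There is 1 library and no replicate, so no value has a replicate error.

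bZIP proteins bind DNA as dimers, through a basic region followed by a leucine zipper, and many of them recognise sites with an ACGT core. Dimer partners change with the tissue and the signal, so a family with many members reads out light, the folding state of the endoplasmic reticulum, the energy supply and metal supply. SOG1 (SUPPRESSOR OF GAMMA RESPONSE 1) belongs to the NAC family of transcription factors, and plants use it to switch on repair and cell cycle arrest genes after DNA breaks. Chromatin immunoprecipitation with sequencing (ChIP-seq) records where such a factor sits, as a pile of reads called a peak.

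The peaks came from whole Arabidopsis thaliana plants of the Col-0 background, aged 2 weeks, that carried SOG1 fused to Myc under a SOG1 promoter (ProSOG:SOG1-Myc) and stood for 2 h in medium with 15 µM zeocin, which breaks DNA. The comparison library was Col-0 without the tag, labelled mock, and its values are not analysed here. A protocol text shared by both samples mentions zeocin, but the mock label was followed. By these labels tag and drug differ together and cannot be told apart. Whole plants mix cell types, so no cell type can be named for a peak, and the genotype label names no mutation of the plant's own SOG1.

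Over the whole list the authors' fold enrichment, a ratio with no stated denominator, had a median of 4.33 and ran from 2.49 to 23.0. Reads per peak, a raw count, had a median of 75 and ran from 39 to 572. The Decibel Score, of unstated formula, ran from 50.0 to 1815 with a median of 77.7. The peaks hold 78249 reads together, 802 of them in the bZIP peaks, and the depth of the library outside peaks is not known. Positions are those of the file, on the TAIR10 build. Intervals given with read counts are exact 95% Poisson intervals and cover counting error only.

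The bZIP peaks ran from the weak end of the list, at bZIP2, to rank 67 of 778 by fold enrichment, at bZIP19. Their fold enrichment ran from 2.96 to 6.85 with a median of 4.24, and 5 of the 11 lay above the list's median while 6 did not. Only the bZIP19 peak and the first bZIP75 peak reached 5-fold, a level that 27.8% of all peaks reached. Reads ran from 43 to 103, and 5 of 11 peaks exceeded the list's median. By Decibel Score, 3 of 11 lay above the list's median, and 7 of 11 lay under 70, where 39.2% of all peaks lay.

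**Figure D1:**
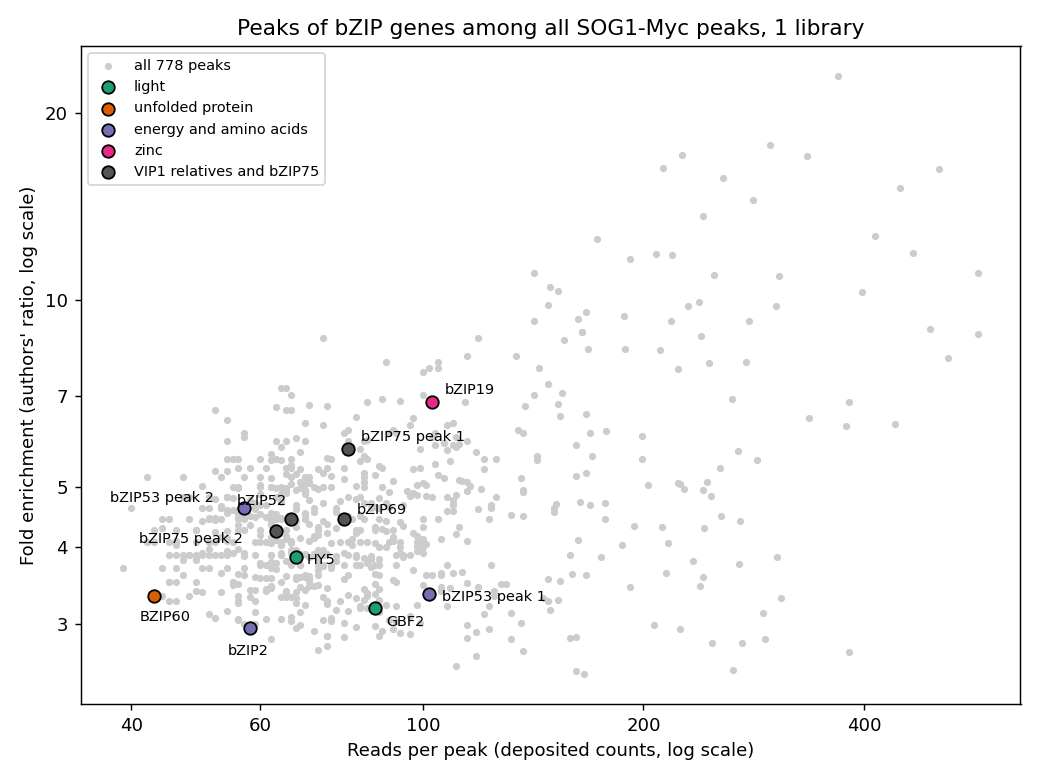
Reads per peak (horizontal, log scale) against the authors' fold enrichment (vertical, log scale) for all 778 peaks in grey and the 11 bZIP peaks in colour by role. The coloured points lie between 43 and 103 reads, with bZIP19 highest at 6.85-fold and bZIP2 lowest at 2.96-fold.

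Light signalling was represented by HY5 and GBF2, whose peaks lay below the list's median by fold enrichment and Decibel Score. HY5 (AT5G11260) is the factor that promotes photomorphogenesis and is destroyed in the dark through the ubiquitin ligase COP1. Its peak, at chromosome 5, 3594835 to 3595499, had a fold enrichment of 3.86 (rank 541 of 778) from 67 reads (interval 51.9 to 85.1). The Decibel Score of this peak was 53.0, rank 714, and the lowest of the 11 bZIP peaks. The lowest score anywhere in the list is 50.0, so HY5 stands just inside the edge of what the authors listed, and 101 peaks (13.0%) scored under 55. The peak is 665 bp long, and by reads per kb of peak it stood higher, with 101 reads per kb and rank 184.

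GBF2 (AT4G01120) binds the G-box, the light-responsive CACGTG element. Its peak at chromosome 4, 484317 to 485290, had 86 reads (68.8 to 106), rank 302 and above the list's median, and more than HY5 although the intervals overlap. The fold enrichment was lower than that of HY5, at 3.18, rank 711, and the score of 66.1 ranked 512. Its summit stood 302 bp into a peak of 974 bp, or 31.0% of the length, the most off-centre summit of the 11 towards the low coordinate.

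The HY5 peak names 3 other genes, AT5G11250, AT5G11280 and AT5G11290, and leaves out OCP3, which in gene order lies directly next to HY5 between named genes. The GBF2 peak names its neighbours on either side, AT4G01110 and AT4G01130. The next peak, 10.2 kb before the GBF2 peak, names ADNT1, the second gene before GBF2 in the order of protein-coding genes. At neither locus does the list say which gene the peak serves.

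The unfolded protein response has a single member here, BZIP60 (AT1G42990). When unfolded proteins gather in the endoplasmic reticulum, the sensor IRE1 splices BZIP60 mRNA and the protein made from it enters the nucleus to raise chaperone genes. The BZIP60 peak was among the smallest of the list, with 43 reads (31.1 to 57.9), rank 772 of 778, over 553 bp, rank 769 by length. Its fold enrichment was 3.33 (rank 677) and its score 54.3 (rank 688), so it was weak by each of the 3 deposited measures. It lies at chromosome 1, 16137485 to 16138037, far from other peaks: the peak before it ends 1.98 Mb away, the fourth-longest of the 773 gaps between neighbouring peaks, and the peak after it starts 508 kb away. The median gap was 84.3 kb. Besides BZIP60 the authors name only the adjacent AT1G43000 there.

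Energy and amino acid supply was represented by bZIP53 and bZIP2, which belong to the small S1 group. These factors pair with group C bZIPs, act downstream of the energy-sensing kinase SnRK1, and raise genes of asparagine and proline metabolism when sugar is short. Their mRNAs carry a conserved upstream reading frame through which sucrose represses translation. The file lists those reading frames as loci of their own, and the bZIP2 peak names CPuORF1 (AT2G18162) and both bZIP53 peaks name CPuORF3 (AT3G62422). A locus of that kind lies on the same transcript as its bZIP gene, so it is no separate neighbour. Another 4 loci called CPuORF are named elsewhere in the list, none of them at a bZIP peak.

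bZIP53 (AT3G62420) is named for 2 peaks, at chromosome 3, 23092598 to 23093725 and 23097461 to 23098184, with 3.74 kb between them and 4817 bp from summit to summit. The first held 102 reads (83.2 to 124) over 1127 bp and the second 57 reads (43.2 to 73.9) over 724 bp. These intervals do not overlap, but they are for counts over peaks of unlike length. Per kb of peak the 2 held 90.5 and 78.7 reads, closer in number but ranked 344 and 676, on opposite sides of the list's median of 88.6. Fold enrichment ran the other way, 3.36 for the first (rank 673) and 4.62 for the second (rank 300). Reads divided by fold enrichment were 30.3 and 12.3, the highest and the lowest of the 11 bZIP peaks, so the same gene holds both extremes. The first peak also names TBL6, of a family linked to cell wall acetylation, and AT3G62450, while passing over 4 protein-coding genes that lie within that run. CP12-2, which encodes a regulator of the Calvin cycle, is next to bZIP53 and is among those passed over. The second peak names AT3G62430, the F-box gene SAF1 and AT3G62450.

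bZIP2 (AT2G18160), known also as GBF5, had the lowest fold enrichment of the 11 peaks, 2.96, rank 748. It came from 58 reads (44.0 to 75.0) at chromosome 2, 7898639 to 7899399. The score ranked higher, at 542, with 63.4. Apart from the upstream reading frame the authors name no other gene at this peak, and of the gene's neighbours neither AT2G18150 nor the kinase gene MPK7 is named. With AT1G06070 it is therefore a locus where the list points to the bZIP transcript alone.

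**Figure D2:**
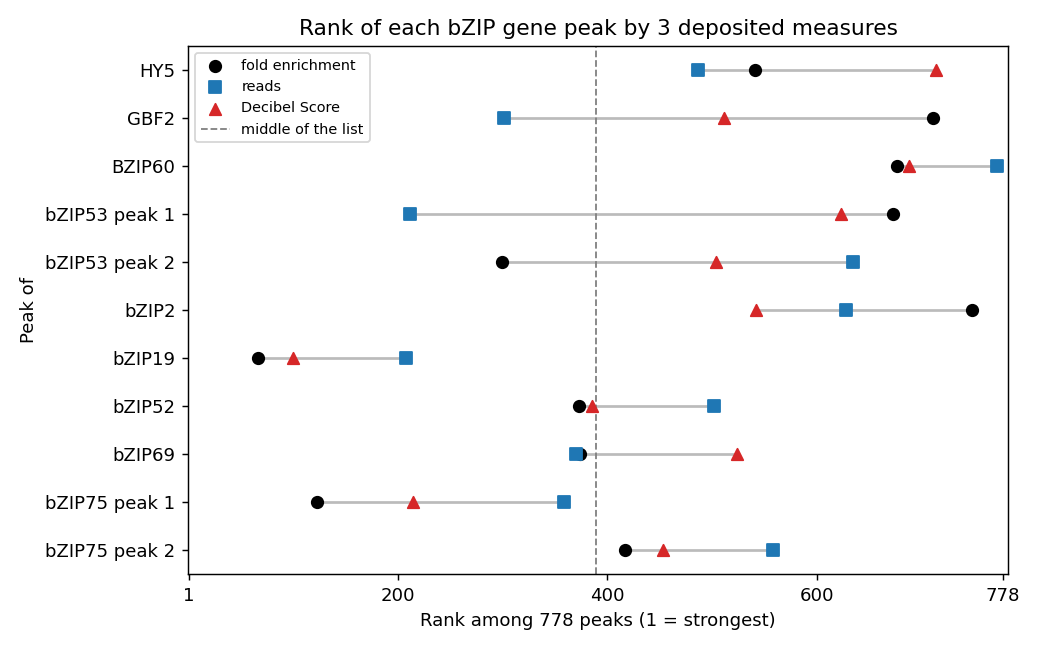
Rank of each of the 11 bZIP peaks among 778 peaks (horizontal, 1 is the strongest) by fold enrichment, reads and Decibel Score, with a line joining the lowest and highest rank and a dashed line at the middle of the list. bZIP19 stays left of the middle by all 3 measures at ranks 67, 208 and 100, BZIP60 stays at the right end, and the first bZIP53 peak spans 212 to 673.

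Zinc supply has 1 member, bZIP19 (AT4G35040), which with its close relative bZIP23 senses zinc shortage and switches on zinc transporter genes. Its peak was the strongest of the bZIP peaks by fold enrichment, reads and Decibel Score. Fold enrichment was 6.85 (rank 67), the reads numbered 103 (84.1 to 125; rank 208) and the score was 195 (rank 100), at chromosome 4, 16675176 to 16676086. The first bZIP53 peak held 102 reads, so nearly the same number of reads went with a much lower fold enrichment. In the list's order by fold enrichment its neighbours were the peak of AT1G76360 just above, 6.88-fold with 93 reads, and that of DREB19 with AT2G38350 and AT2G38365 just below, 6.85-fold with 381 reads.

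The bZIP19 peak names 3 more genes: BGAL11, a beta-galactosidase gene, AT4G35030 and AT4G35025. In gene order bZIP19 is the outermost of these 4, with the other named genes all on its low-coordinate side, and RAC3 (also called ROP6), a small GTPase gene within the run, is not named. The nearest gene beyond bZIP19, MSI3, is not named either. As at HY5 and GBF2, the list does not say which of the named genes this peak serves.

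The VIP1-related group I members, bZIP52 (AT1G06850) and AT1G06070, had nearly equal peaks in the middle of the list. VIP1 and its relatives are known for moving into the nucleus under osmotic and mechanical stress. bZIP52 had 4.43-fold enrichment (rank 373) with 66 reads (51.0 to 84.0) at chromosome 1, 2104586 to 2105307. AT1G06070 had 4.43-fold (rank 374) with 78 reads (61.7 to 97.3) at chromosome 1, 1837376 to 1838236. The read intervals overlap, and they are for counts over peaks of unlike length, 722 and 861 bp. Whether the reads differ was not tested. Their scores were 78.3 and 65.1, ranks 386 and 524. AT1G06070 is the only member whose peak names 1 locus when CPuORF loci are counted, as 199 peaks in all do (25.6%). The choice of members favours peaks that name more loci, so nothing is read from that share. The bZIP52 peak also names AT1G06840 and Plsp2A, a plastid signal peptidase gene, which flank it in the order of protein-coding genes.

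bZIP75 (AT5G08141) is named for a pair of peaks at chromosome 5, 2614457 to 2615272 and 2615279 to 2616036. Only 7 bp separate them, the smallest of 773 gaps in the list and the only 1 under 10 bp. Their summits are 757 bp apart. The first had 5.76-fold enrichment (rank 123) with 79 reads (62.5 to 98.5), and the second 4.24-fold (rank 417) with 63 reads (48.4 to 80.6). The read intervals overlap. Both name AT5G08139, and the first also names BIM1, a partner of BES1 in brassinosteroid signalling. As at bZIP19, BZIP60 and the second bZIP53 peak, the bZIP gene stands at the end of the run of named genes. At BZIP60 and the second bZIP75 peak the run holds only 2 genes, so an end place is forced there.

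**Figure D3:**
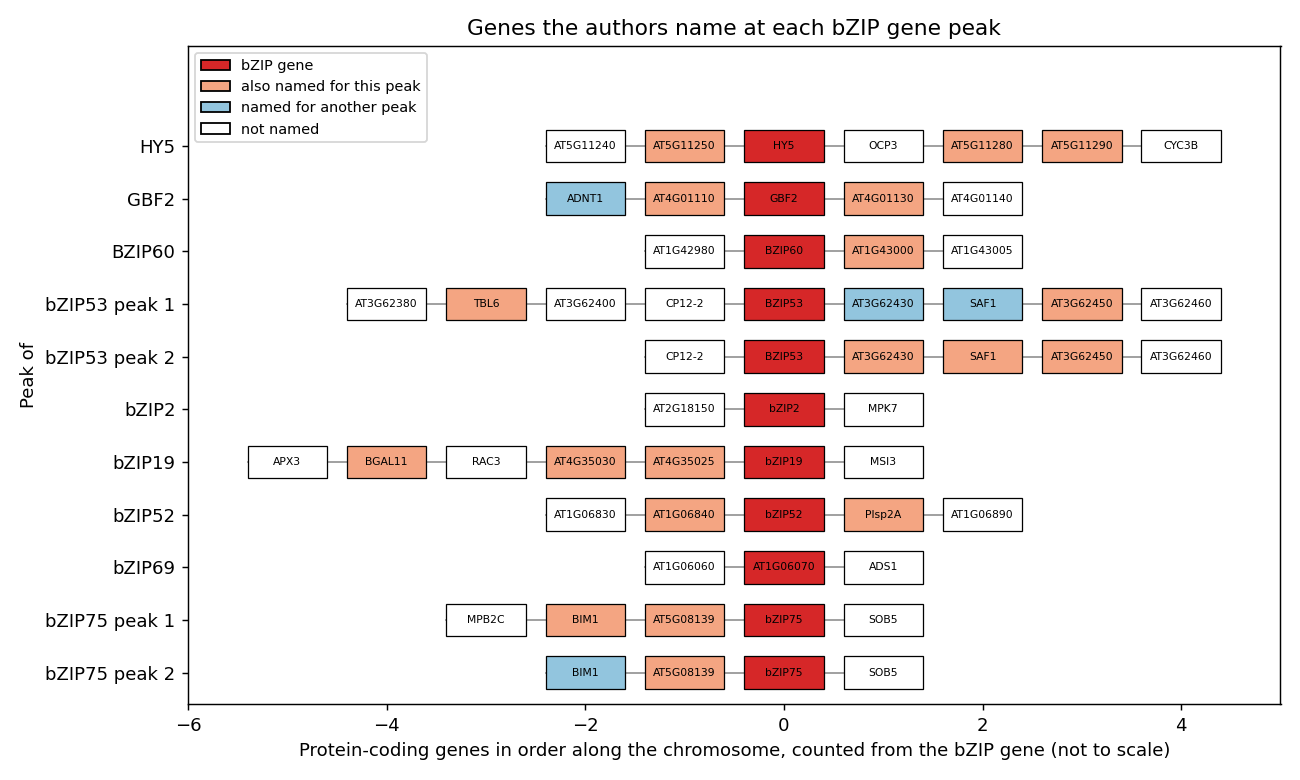
Protein-coding genes in their order along the chromosome around each bZIP gene (position 0, not to scale), coloured by whether the authors name them for that peak, for another peak or not at all; CPuORF1 and CPuORF3 are not drawn. Runs with unnamed genes inside them are those of HY5, the first bZIP53 peak and bZIP19. In the rows of BZIP60, the second bZIP53 peak, bZIP19 and both bZIP75 peaks the bZIP gene is at the end of the named run. The runs of BZIP60 and the second bZIP75 peak hold only 2 genes, so an end place is forced there.

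Over the 11 peaks the authors name 19 loci besides the members, with CPuORF1 and CPuORF3 counted here and in the tally that follows. A single peak names 1 locus, 3 name 2, 3 name 3, 3 name 4 and 1 names 5, with a median of 3 against 2 in the whole list. A peak that names more loci has more chances to name a member, and the 35 peaks that name 0 genes could not be chosen. Nothing is therefore read from the difference between these medians. The runs from the first to the last named gene hold 36 protein-coding genes counted over peaks, and 6 of them, in 3 runs, are not named for the peak. bZIP53 and bZIP75 are the 2 of 9 members named for more than 1 peak, against 94 of 1513 named loci (6.21%). Only 7 bp separate the bZIP75 pair, and whether it is 1 region or 2 was not tested, so nothing is read from the difference.

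Lengths ran from 553 to 1127 bp with a median of 760 bp, against 837 bp in the list. Summits lay from 31.0% to 64.2% of the way along the peak, with a median of 46.7% against 51.2% in the list. The GBF2, BZIP60, bZIP19 and first bZIP53 summits fell in the first 36.6% of their peaks, and the HY5 summit was the farthest along. The authors' FDR ran only from 0.140 to 0.150 over the 11 peaks, close to the list's median of 0.147. It therefore separates no bZIP peak from another. The lowest FDR of any peak in the list was 0.116, so none of these peaks met a stricter limit.

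**Figure D4:**
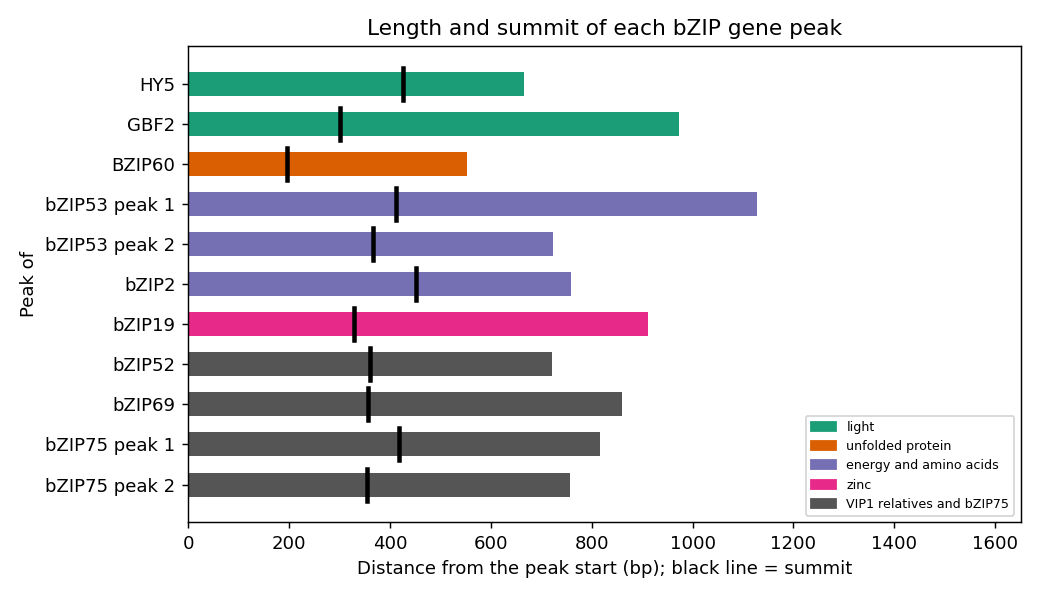
Length of each of the 11 bZIP peaks (bars, bp from the peak start) with the summit as a black line, coloured by role. The first bZIP53 peak is the longest at 1127 bp and the BZIP60 peak the shortest at 553 bp.

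Within the bZIP family the named genes were spread over subgroups. Of 65 listed bZIP genes, 9 were named (13.8%), beside 4.99% of all 27444 protein-coding loci, but the rule chose the members by that naming and nothing is read from the difference. Among the 389 strongest peaks by fold enrichment, 5 of the 9 were named: bZIP53, bZIP19, bZIP52, AT1G06070 and bZIP75. Among the 389 strongest by Decibel Score, 3 of the 9 were named: bZIP19, bZIP52 and bZIP75. Either set names 688 of the 1369 protein-coding loci that the whole list names, or 2.51% of all 27444. At peaks that name a single gene, with CPuORF loci counted as genes, AT1G06070 was the 1 of 9, beside 181 of those 1369 loci (0.66% of all). Energy group S1 had 2 of 5 listed genes named (bZIP2 and bZIP53, not bZIP1, bZIP11 or bZIP44). Group I had 2 of 7 listed genes named. These counts cover the listed genes only, and the list may leave out other family members. HYH, the closest relative of HY5, was not named, nor was bZIP23, the closest relative of bZIP19. GBF1 and GBF3 were not named beside GBF2, and the membrane-anchored stress factors bZIP17, bZIP28 and bZIP49, which share the unfolded protein response with BZIP60, were not named either. None of the 10 listed TGA factors of defence signalling was named. Nor were the 11 listed group A factors of abscisic acid and flowering, or the 4 listed group C factors. A gene that is not named may lie below detection, since the depth is not known. It may also lie near a peak and be passed over, since the rule that assigned genes is not stated.

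**Figure D5:**
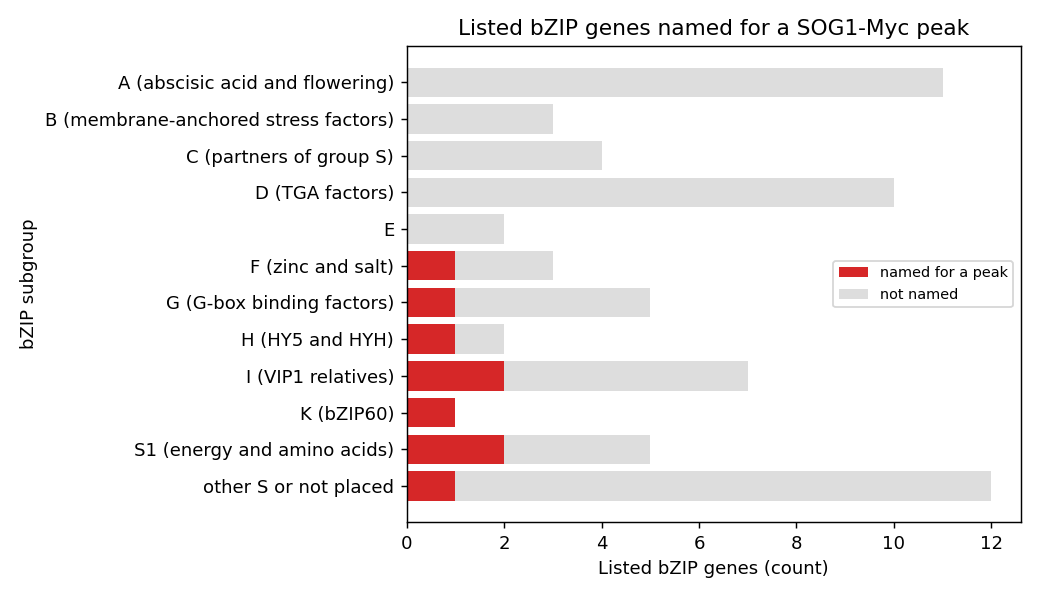
Number of listed bZIP genes in each subgroup that the authors name for a peak (red) or do not name (grey). Groups S1 and I have 2 named genes each, groups F, G, H and K and the remaining S or unplaced genes have 1 each, and groups A, B, C, D and E have none.

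The partners of these factors gave 4 named genes of 48 listed (8.33%), beside the 4.99% of protein-coding loci. The partner lists were chosen with earlier results of these data known, so nothing is read from the difference. Light signalling had 0 of 12, so COP1, the phytochromes PHYA and PHYB and the cryptochromes CRY1 and CRY2 were not named for a peak. The unfolded protein response had 2 of 12. BIP2 (AT5G42020), a chaperone of the endoplasmic reticulum, was named with 4 other genes at a peak of 4.54-fold and 151 reads, at chromosome 5, 16814601 to 16816153. NAC103 (AT5G64060), a NAC factor known to act downstream of bZIP60, had a 4.09-fold peak of 115 reads shared with AT5G64050, at chromosome 5, 25635111 to 25636201. Both held more reads than the BZIP60 peak, but that peak ranked 772 of 778 by reads and the counts are over peaks of unlike length. Nothing is therefore read from that difference. By Decibel Score the BIP2 peak ranked 94 and the NAC103 peak 577. IRE1A, IRE1B, BIP1 and BIP3 were not named.

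Energy and amino acid supply had 1 of 12, PRODH1 (AT3G30775), the proline dehydrogenase gene known as a target of bZIP53 and its relatives. It was the only gene named at either of its 2 peaks, of 4.07-fold with 43 reads and 3.88-fold with 46 reads, at chromosome 3, 12451634 to 12452171 and 12453556 to 12454151. Those peaks were as small as that of BZIP60. The kinase genes KIN10 and KIN11 and the asparagine synthetase gene ASN1 were not named. Zinc supply had 1 of 12, the transporter gene ZIP10 (AT1G31260). Its peak of 6.32-fold and 110 reads at chromosome 1, 11181305 to 11182240, rank 86, came close to that of bZIP19, but it also names AGO2 (AT1G31280) and AT1G31274. ZIP4, ZIP5, ZIP9 and the nicotianamine synthase genes NAS2 and NAS4 were not named. No partner gene shared a peak with a bZIP member.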

How the data were processed

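One peak list, that of the tagged zeocin library, was used. Per the submitters' processing notes, CASAVA 1.8.2 and the TAIR10 build were used; which aligner, peak caller, control and thresholds were used is not stated by any source at hand. Per the file headers, the deposited columns hold a read count, a fold enrichment (ratio), a Decibel Score, a false discovery rate (on the scale of a q-value), a length and a summit, taken as an offset from the peak start since it is below the length on every line. These values are raw or the authors' own and were used only to describe and rank peaks within the list. The file title carries a 5 kb tag, but how genes were assigned is not stated.

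With Python 3.11.15 and pandas 2.3.3, 1645 lines were collapsed to 778 peaks, and ranks run from 1 for the highest value. Counting and ranking were tested on simulated lines. The length column counts the end base for 517 peaks and leaves it out for 261, an uncertainty of 1 bp. A gene table of assembly TAIR10.1 gave names, classes and gene order only (1483 of 1513 loci matched). No test was run. The members and all lists were chosen with earlier results of these data known, and the subgroups of the bZIP family were assigned after the values were seen. Genes given here are the members, all genes named at their peaks, and listed bZIP genes and partners named for a peak. Close relatives not named for a peak, and the peaks next to the strongest member by fold enrichment, are also given. Other listed genes not named for a peak are examples chosen afterwards. The planned promoter motif description was not run, as no promoter sequence was used here.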

Additional observations from a re-analysis of the deposited data

How the results depend on the processing

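Among the 389 strongest peaks by fold enrichment, 5 bZIP genes and 2 partner genes were named, against 9 and 4 in the whole list. Those peaks named 688 protein-coding loci (2.51% of all), against 1369 (4.99%) in the whole list. Among the 389 strongest by Decibel Score there were 3 and 2 (2.51%). With only the 199 peaks that name a single gene, CPuORF loci counted as genes, there were 1 and 1 (0.66%), AT1G06070 and PRODH1. These counts fall partly because fewer genes are named. The number of bZIP peaks above the list's median was 5 of 11 by fold enrichment, 5 of 11 by reads, 6 of 11 by reads per kb (chosen after seeing the data) and 3 of 11 by Decibel Score, and 5 of 9 by fold enrichment when only the strongest peak of each gene was kept; the cause of the lower count by Decibel Score was not tested. Taken singly, the side of the list's median that a bZIP peak held by fold enrichment changed for 4 of 11 peaks by reads (GBF2, both bZIP53 peaks and bZIP52), for 2 by Decibel Score (the second bZIP53 peak and AT1G06070) and for 3 by reads per kb (HY5 and both bZIP53 peaks). The promoter motif description and its alternative spacing were not run. Leaving out a replicate was not possible with 1 library. No paired analysis was possible because each group has 1 library. Because the library's depth is unknown, genes that are not named may lie under the detection limit.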

Other observations

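In the part of the list that scored under 60, which holds 186 peaks (23.9%), lay the peaks of HY5 and BZIP60 and the first bZIP53 peak. Gaps under 5 kb between neighbouring peaks numbered 83 of 773, and the pairs at bZIP53 and bZIP75 are among them. The longest gap in the list was 4.07 Mb, against 1.98 Mb before the BZIP60 peak.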
